A study of Mus musculus with 12 samples.

Results

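Nonsense-mediated mRNA decay (NMD) is the pathway that degrades transcripts whose translation ends too early, such as those with an exon junction downstream of the stop codon. *Upf3b* is the X-linked factor that links the exon junction complex, the protein mark that splicing leaves on mRNA, to the helicase *Upf1* through *Upf2*. The kinase *Smg1*, held in check by *Smg8* and *Smg9*, phosphorylates *Upf1*, after which *Smg6* cuts the transcript and *Smg5* recruits decapping and deadenylation enzymes. Several of these factors, among them *Upf1*, *Upf2*, *Upf3b*, *Smg1*, *Smg5* and *Smg6*, are encoded by mRNAs that are themselves known decay targets, so that their levels are known to rise when the pathway is weakened. The transcripts of *Upf3b*, its paralog *Upf3a*, *Upf1*, *Upf2*, *Smg1*, *Smg5*, *Smg6*, *Smg8* and *Smg9* were followed here, 9 of the 46517 genes counted, because *Upf3b* was nearly absent from the *Meteor* KO samples. The gene set was chosen by the level of *Upf3b* in KO against WT cells, which is therefore given as a description with no test.

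PolyA-selected RNA had been sequenced from 12 samples in 4 groups of 3. WT and *Meteor* KO cells shared the EomesEGFP reporter mouse ESC line, labelled with a C57BL/6 background, and both were grown on mouse embryonic fibroblast feeders. The KO cells carried a CRISPR-Cas9 nickase deletion of the *Meteor* enhancer upstream of *Eomes*, and the methods describe individual puromycin-selected clones, so that a difference between genotypes cannot be told apart from one between the lines sampled. Day 0 samples were undifferentiated ESCs, and day 3 samples were embryoid bodies formed in hanging drops for cardiac differentiation. Nothing says whether the replicates were separate cultures, so p-values measure the spread between these samples. Reads on genes ranged from 17455927 to 23910943 per sample, and no pair of replicates agreed within sampling noise. The deleted locus matched its labels, since *Platr11*, annotated there on the minus strand of chromosome 9, had 11 to 112 reads in the WT samples and 0 or 1 in each KO sample. All 6 pluripotency markers were detected in every sample. Their summed level at day 0 was 3470 to 3850 CPM (read counts scaled to library size) in KO and 2620 to 3110 CPM in WT, without overlap. At day 3 it was 1100 to 1190 CPM in KO, and 1110 and 1120 CPM in WT replicates 1 and 2 against 596 CPM in WT replicate 3. The day 3 sums cover markers that differed in opposite directions. *Sox2* had 74.2, 62.6 and 61.2 CPM in WT and 193, 160 and 151 CPM in KO. *Nanog* had 339, 348 and 126 CPM in WT and 167, 153 and 178 CPM in KO. The part of these differences in the genotype changes was not tested. The summed level of 6 primitive streak markers at day 3 was 834 to 1720 CPM in WT and 75.0 to 150 CPM in KO, without overlap.

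*Upf3b*, on the minus strand of chromosome X at 37091678-37110322 (GRCm38), was expressed at similar levels in WT ESCs and WT day 3 cells and was nearly undetected in KO cells. The 3 WT ESC samples had 45.5, 55.9 and 54.6 CPM, whereas KO ESCs had 0.22, 0.66 and 0.51 CPM. At day 3 the levels were 49.7, 48.7 and 55.0 CPM in WT against 0, 0 and 0.04 CPM in KO. Every WT sample therefore lay far above every KO sample at both days. In reads, the 3 KO samples held 26 against 2938 in WT at day 0 and 1 against 3231 at day 3. KO *Upf3b* was thus 0.898% of WT at day 0 (exact binomial 95% interval, 0.586 to 1.32) and 0.0318% at day 3 (0.000804 to 0.177), where the intervals cover counting error only. In bulk RNA, fewer cells with the transcript and less transcript per cell cannot be told apart.

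The few KO reads were more at day 0. The summed level of 8 fibroblast markers in KO replicates 1, 2 and 3 at day 0 was 106, 305 and 192 CPM, in the same order as their *Upf3b*. It was 35.5 to 75.0 CPM in the KO samples at day 3, and 68.1 to 233 and 33.2 to 54.3 CPM in WT at days 0 and 3. In KO cells 7 of the 8 had reads in every sample of each day, led by *Col1a1* and *Col1a2* at day 0. The markers did not move together in KO. From day 0 to day 3 the means of *Col1a1* (89.05 and 8.98 CPM), *Col1a2* (63.25 and 9.81), *Col3a1* (24.4 and 19.69), *Postn* (7.55 and 1.28) and *S100a4* (1.34 and 0.1) fell. Those of *Dcn* (1.55 and 5.59), *Thy1* (13.35 and 13.92) and the sparse *Lum* (0.12 and 0.18) did not. Whether feeders supplied the *Upf3b* reads was not tested. In WT cells the time change of *Upf3b* was -0.02 on the log2 scale (SE 0.16, adjusted p = 0.934 in edgeR's quasi-likelihood test), with overlapping groups.

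**Figure D1:**
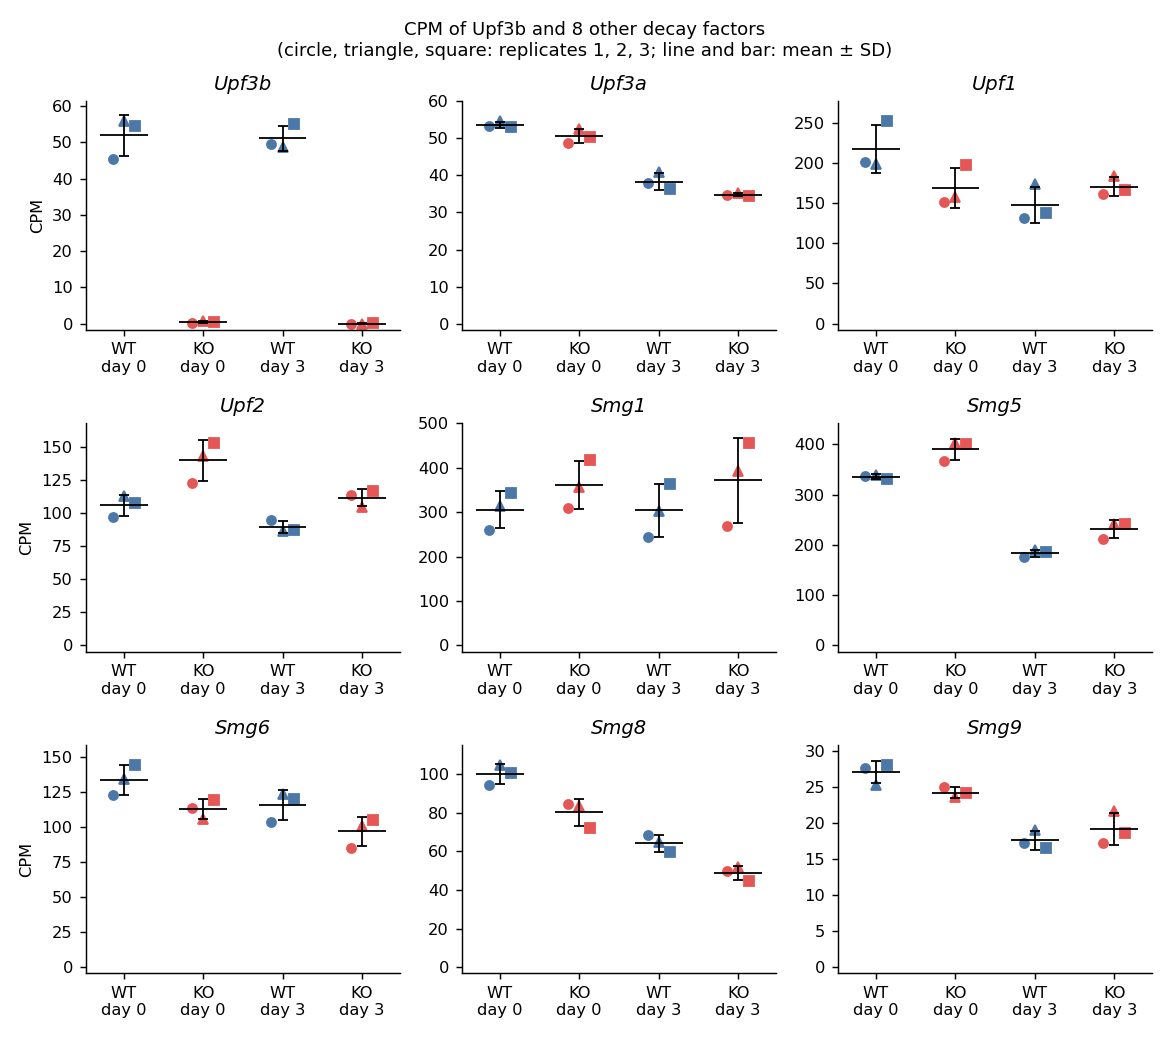
CPM of the 9 decay factors (y axis, TMM-scaled CPM, 1 panel a gene) in each sample of the 4 groups (x axis), with the mean and SD. Upf3b lies at 0 to 0.66 CPM in the 6 KO samples and at 45.5 to 55.9 CPM in the 6 WT samples, whereas Upf3a has 34.6 to 52.5 CPM in KO.

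The sequence upstream of the *Upf3b* start is shown because reads of the transcript were nearly lost while genes on both sides of it were still expressed. The 250 bases before the start were taken from RefSeq (GRCm38.p6), where all 9 genes had an entry. These are reference bases. The sequence of the KO cells was not examined, and its part in the loss of reads was not tested. Capitals mark TCGCGAGA, read on either strand, and AAGATGGC, a pair of letter strings chosen after the promoters had been read. *Smg5* is shown beside *Upf3b* as the other of the 9 genes that holds TCGCGAGA, and *Upf3a* as the paralog that holds neither string.
Upf3b, chrX:37110323-37110572, minus strand: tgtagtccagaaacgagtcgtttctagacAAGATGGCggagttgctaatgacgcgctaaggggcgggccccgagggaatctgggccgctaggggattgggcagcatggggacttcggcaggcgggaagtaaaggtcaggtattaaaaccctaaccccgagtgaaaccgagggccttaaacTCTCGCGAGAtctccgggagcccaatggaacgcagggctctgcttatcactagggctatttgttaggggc
Smg5, chr3:88336010-88336259, plus strand: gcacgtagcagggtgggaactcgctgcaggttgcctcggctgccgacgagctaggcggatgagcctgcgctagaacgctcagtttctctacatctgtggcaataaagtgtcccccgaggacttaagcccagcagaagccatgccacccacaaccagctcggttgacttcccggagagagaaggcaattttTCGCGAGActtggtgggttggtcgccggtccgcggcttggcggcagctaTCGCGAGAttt
Upf3a, chr8:13785365-13785614, plus strand: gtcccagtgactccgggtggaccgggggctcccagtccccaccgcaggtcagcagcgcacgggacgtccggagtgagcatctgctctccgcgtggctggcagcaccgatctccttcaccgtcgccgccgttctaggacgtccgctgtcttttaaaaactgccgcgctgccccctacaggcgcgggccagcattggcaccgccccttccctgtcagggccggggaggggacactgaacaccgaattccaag
In *Upf3b* the palindrome that holds TCGCGAGA began 70 bases before the start and AAGATGGC began 221 bases before it. TCGCGAGA was present in 0.995% of 32851 promoter windows of 300 bases and AAGATGGC in 2.75%, with both strands read. The common strings GGGCGG and CCAAT, also read on both strands, stood in 7 and 4 of the 9 windows and in 35.7% and 37.4% of all, and TGACGTCA in 0 of the 9 and 1.79% of all. A match describes the letters of the window and no factor's binding.

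Genes on both sides of *Upf3b* were expressed in KO cells, so the loss of reads did not extend over the neighbourhood. Of the 5 nearest tested genes on each side, 9 had fitted levels in KO between 0.475-fold and 1.17-fold of WT at day 0, and the sparse *Rhox1* averaged 0.71 CPM in WT and 0.85 CPM in KO. *Rpl39*, a ribosomal protein gene that ends 6.3 kb away, had 181, 157 and 159 CPM in WT and 176, 149 and 148 CPM in KO at day 0. *Nkap*, which begins 16.5 kb away on the other side, had 38.6, 37.3 and 36.0 CPM in WT and 35.8, 30.3 and 30.5 CPM in KO. Neither flanking gene passed the test at either day, with adjusted p-values of 0.608 and 0.592 for *Rpl39* and 0.107 and 0.591 for *Nkap* at days 0 and 3 (edgeR). With a replicate block within each day, *Nkap* passed at day 0 (adjusted p = 0.0481).

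Among the 10 neighbours, *Sept6* and *Rhox5* passed the test, and with a block within each day *Ube2a* also passed at day 0 (-0.26, adjusted p = 0.021) and *Nkrf* at day 3 (0.24, adjusted p = 0.0332). *Sept6*, which encodes a septin of the cytoskeleton, had 37.0, 27.1 and 36.5 CPM in WT and 19.5, 14.1 and 14.4 CPM in KO at day 0. Its log2 change was -1.07 (SE 0.13, adjusted p = 0.000587) at day 0 and -0.36 (SE 0.12, adjusted p = 0.0468) at day 3, without overlap of the groups. The day 3 call of *Sept6* was lost in 8 of the 12 fits that each left out 1 library (adjusted p up to 0.182) and without the block (adjusted p = 0.0805). It was also lost scaled to neighbouring genes (-0.34, adjusted p = 0.0806). *Rhox5*, a homeobox gene of the X-linked reproductive cluster 694.5 kb from *Upf3b*, did not pass at day 0 and was higher in KO at day 3 by 1.23 (SE 0.25, adjusted p = 0.00492). No gene annotated in GENCODE M21 overlaps *Upf3b*, so no annotated overlapping gene shared its reads. None of the 100-base words of its longest transcript (2553 bases) occurs in a transcript of another gene. Only exact words were compared, so a copy with scattered differences would not be found.

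**Figure D2:**
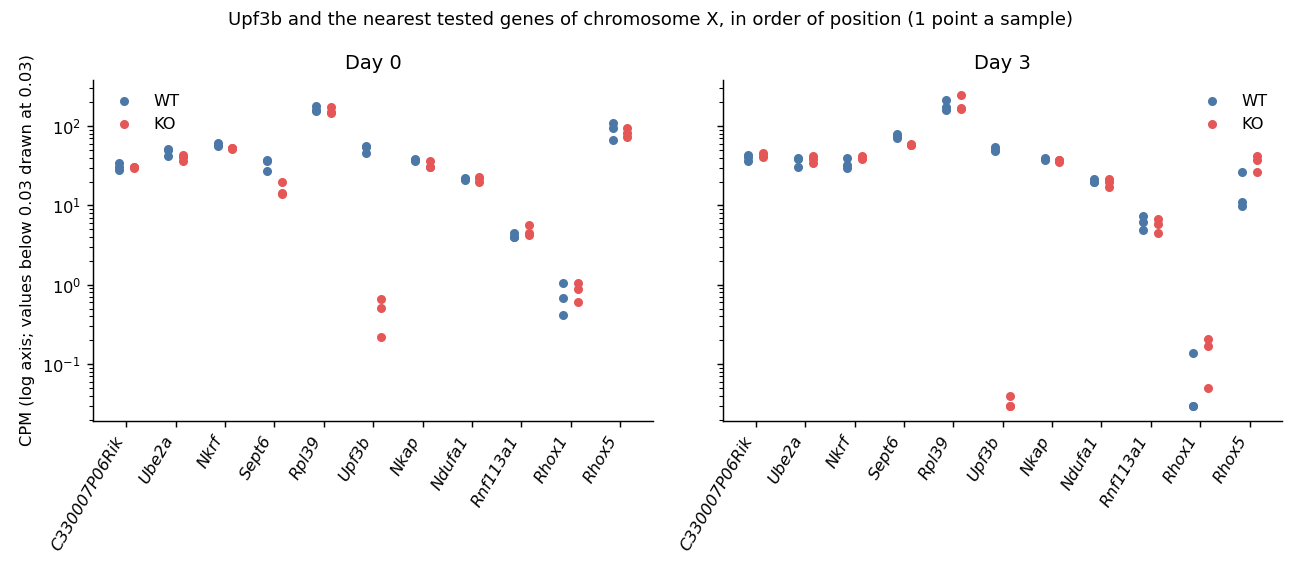
CPM (y axis, log scale, values below 0.03 drawn at 0.03) of Upf3b and the 5 nearest tested genes on each side, in order along chromosome X (x axis), 1 point a sample, at day 0 and day 3. Upf3b is the one gene whose KO samples fall from about 50 CPM to below 1 CPM.

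*Upf3a*, the autosomal paralog that can take the place of *Upf3b* in the decay complex, was not higher in KO cells. At day 0 *Upf3a* had 53.3, 54.7 and 53.0 CPM in WT and 48.8, 52.5 and 50.4 CPM in KO. At day 3 it had 37.9, 40.9 and 36.3 CPM in WT and 34.6, 35.4 and 34.6 CPM in KO. All 3 KO values were below all 3 WT values at each day, but by margins that did not pass the test. Of all genes tested, 17.4% at day 0 and 23.0% at day 3 were lower in KO without overlap. The log2 change was -0.09 at day 0 (95% interval -0.26 to 0.08, adjusted p = 0.472) and -0.14 at day 3 (-0.31 to 0.03, adjusted p = 0.205). Scaled to neighbouring genes the change at day 3 was 0.03 (adjusted p = 0.843). Per kb of exon, WT cells at day 0 had 13.0 CPM of *Upf3b* and 9.15 CPM of *Upf3a*.

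*Upf2*, the bridge between *Upf1* and the Upf3 proteins, was higher in KO cells at both days. It had 97.4, 113 and 108 CPM in WT and 123, 144 and 153 CPM in KO at day 0. At day 3 the values were 94.7, 86.9 and 87.6 CPM in WT and 114, 105 and 117 CPM in KO. The groups did not overlap at either day, as for 16.8% of all genes tested in this direction at day 0 and 20.8% at day 3. The log2 change was 0.40 at day 0 (SE 0.10, adjusted p = 0.0161) and 0.32 at day 3 (SE 0.10, adjusted p = 0.0313). Each call was lost in 4 of the 12 fits that each left out 1 library, at day 0 without WT replicate 1 or 3 or KO replicate 2 or 3 (adjusted p = 0.0542 to 0.0831) and at day 3 without WT replicate 2 or 3 or KO replicate 1 or 3 (adjusted p = 0.0793 to 0.119). The median of the 36 expressed genes within 10 Mb of *Upf2* was 0.04 at day 0 and -0.06 at day 3. The call at day 0 was lost when the fit was scaled to those genes (0.36, adjusted p = 0.0535), and the call at day 3 was kept (adjusted p = 0.0349) but was lost with library size only or no filter on low counts (adjusted p = 0.072 and 0.0577).

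*Upf1*, the helicase at the centre of the pathway, gave opposite signs at the 2 days. At day 0 it had 201, 198 and 252 CPM in WT and 151, 158 and 197 CPM in KO. At day 3 it had 132, 173 and 138 CPM in WT and 162, 184 and 166 CPM in KO. Each KO replicate was below the WT replicate of the same number at day 0 and above it at day 3. The changes of -0.37 (SE 0.12, adjusted p = 0.0619) and 0.21 (SE 0.12, adjusted p = 0.23) did not pass. With a replicate block within each day both passed (adjusted p = 0.00148 and 0.0157), and day 0 also passed in DESeq2 (adjusted p = 0.0445). Scaled to its neighbours on chromosome 8, *Upf1* changed by -0.22 at day 0 (adjusted p = 0.186) and 0.27 at day 3 (adjusted p = 0.0792). The KO effect differed between the days by 0.58 (SE 0.17, adjusted p = 0.0511), which passed with that block (adjusted p = 0.00113), in DESeq2 (adjusted p = 0.018) and in limma-voom (adjusted p = 0.0493).

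*Smg1*, the kinase of *Upf1*, was higher in each KO replicate than in the WT replicate of the same number at both days. At day 0 it had 260, 315 and 342 CPM in WT and 309, 357 and 417 CPM in KO. The day 3 values were 245, 303 and 363 CPM in WT and 268, 392 and 455 CPM in KO. The groups overlapped at both days because replicate 1 was low and replicate 3 high in every group. The log2 change was 0.24 at day 0 (SE 0.08, adjusted p = 0.062) and 0.28 at day 3 (SE 0.08, adjusted p = 0.0257). The call at day 3 was lost without the replicate block (adjusted p = 0.297), and day 0 passed with the block within each day (adjusted p = 0.0146). The day 3 call was also lost without WT replicate 1 or 2 or KO replicate 2 or 3 of day 3 (adjusted p = 0.0598 to 0.113) and with library size only (adjusted p = 0.0746). Genes within 10 Mb had a median change of 0.13 at day 3, and scaled to them *Smg1* changed by 0.14 (adjusted p = 0.276).

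*Smg5*, an adaptor that brings decapping and deadenylation enzymes to phosphorylated *Upf1*, was higher in KO cells at both days. It had 338, 339 and 331 CPM in WT and 366, 403 and 400 CPM in KO at day 0. At day 3 it had 176, 190 and 185 CPM in WT and 211, 242 and 241 CPM in KO. The WT replicates were close together, and no KO value fell among them. The log2 change was 0.21 at day 0 (SE 0.06, adjusted p = 0.0402) and 0.33 at day 3 (SE 0.06, adjusted p = 0.00382). The day 0 call was lost without the block (adjusted p = 0.0826), with library size only or no filter (adjusted p = 0.078 and 0.141) and in 9 of the 12 fits without 1 library (up to 0.17), whereas the day 3 call was kept in all 12. Scaled to the genes within 10 Mb, whose medians were 0.07 and 0.13, *Smg5* changed by 0.14 (adjusted p = 0.182) and 0.20 (adjusted p = 0.0561).

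*Smg6*, the endonuclease of the pathway, moved the other way. It had 123, 134 and 145 CPM in WT and 114, 106 and 120 CPM in KO at day 0, and 104, 124 and 121 CPM in WT and 85.2, 101 and 105 CPM in KO at day 3. The change of -0.24 at day 0 did not pass (SE 0.08, adjusted p = 0.0653) and that of -0.26 at day 3 did (SE 0.08, adjusted p = 0.0374). Day 0 passed with the block within each day (adjusted p = 0.0138), and day 3 did not without a block (adjusted p = 0.0952), with RLE scaling or no filter (adjusted p = 0.0583 and 0.0727), or in 9 of the 12 fits without 1 library (adjusted p up to 0.147). The annotation places 6 genes on the strand opposite *Smg6* (at most 184 reads for 1 of them in a sample) and Cers1 opposite *Upf1* (at most 265 reads), and the strand setting of the counting is not given in the sources used here.

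*Smg8* and *Smg9* hold the kinase *Smg1* inactive, and only *Smg8* passed the test between genotypes. *Smg8* had 94.5, 105 and 101 CPM in WT and 84.7, 83.6 and 72.4 CPM in KO at day 0. At day 3 it had 68.5, 64.9 and 59.7 CPM in WT and 50.1, 51.8 and 44.6 CPM in KO. Its change was -0.32 at day 0 (SE 0.08, adjusted p = 0.0213) and -0.40 at day 3 (SE 0.08, adjusted p = 0.00583), with no overlap. The day 0 call of *Smg8* was lost without WT replicate 2 or 3 or KO replicate 2 or 3 of that day (adjusted p = 0.063 to 0.108), and the day 3 call was kept in all 12 fits without 1 library. *Smg9* had 27.7, 25.3 and 28.1 CPM in WT and 25.0, 23.5 and 24.1 CPM in KO at day 0. It had 17.2, 19.1 and 16.5 CPM in WT and 17.3, 21.6 and 18.7 CPM in KO at day 3. The changes of *Smg9* were -0.16 (adjusted p = 0.384) and 0.12 (adjusted p = 0.467).

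Both factors that were called lower, *Smg6* and *Smg8*, lie on chromosome 11, where expressed genes were lower in KO cells as a whole. The median change over the 798 genes of chromosome 11 with a mean above 10 CPM was -0.24 at day 0 and -0.30 at day 3, and 81.8% and 83.1% of them were below 0. On the 17 autosomes other than 8 and 11 the median ranged from 0.01 to 0.08 at day 0 and from 0.04 to 0.16 at day 3. Chromosome 8, which carries *Upf3a* and *Upf1*, had medians of -0.15 and -0.13. Chromosome X, which carries *Upf3b*, had medians of -0.09 and -0.02. Of such genes 22.4% and 19.9% were called lower on X, 16.8% and 21.9% on 8 and 33.0% and 43.1% on 11. The shares of all genes tested were 10.9% and 16.7%. Within 10 Mb of *Upf3b* the median was -0.14 at day 0 and 0.04 at day 3. Within 10 Mb of *Smg6* the median was -0.28 at day 0 and -0.34 at day 3, and within 10 Mb of *Smg8* it was -0.30 and -0.31. Scaled to those neighbours, *Smg6* changed by 0.04 and 0.08 (adjusted p = 0.806 and 0.539) and *Smg8* by -0.02 and -0.08 (adjusted p = 0.887 and 0.463). This scaling was added after the data had been seen. DNA copy number was not measured in these files, and its part in the result was not tested.

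**Figure D3:**
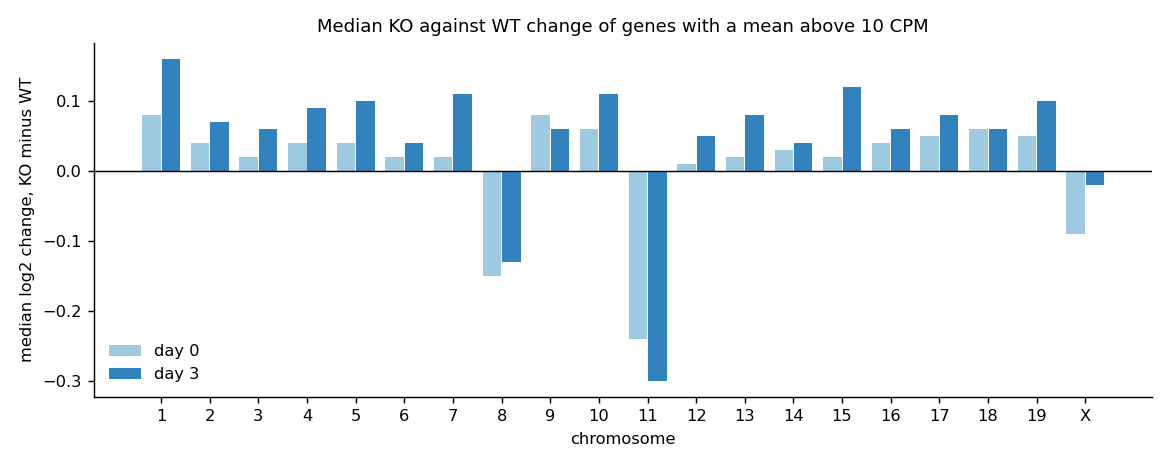
Median log2 change, KO minus WT, of genes with a mean above 10 CPM (y axis) for each chromosome (x axis) at day 0 and day 3. Chromosome 11 stands lowest at -0.24 and -0.30, followed by chromosome 8 at -0.15 and -0.13 and chromosome X at -0.09 and -0.02. The remaining autosomes lie between 0.01 and 0.16.

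Counted together, 2 of the 8 other factors were higher in KO cells at day 0 (*Upf2* and *Smg5*) and 1 was lower (*Smg8*), at an adjusted p below 0.05 over the 15673 genes tested. Of all genes tested, 9.56% were called higher and 10.9% lower. At day 3, 3 of 8 were higher (*Upf2*, *Smg1* and *Smg5*) and 2 lower (*Smg6* and *Smg8*), beside 14.3% and 16.7% of all genes. The median change of the 8 was -0.12 at day 0 and 0.16 at day 3, against -0.01 and 0.00 over all genes tested. The groups did not overlap for 2 higher and 5 lower factors at day 0, and for 2 higher and 2 lower at day 3, beside the shares of all genes given above. With a block within each day, 3 were higher and 3 lower at day 0 and 4 higher and 2 lower at day 3, where that fit called 16.8%, 18.0%, 22.5% and 24.4% of all genes. Scaled to neighbouring genes in edgeR, 0 were called at day 0, with *Upf2* and *Smg1* at an unadjusted p below 0.05, and *Upf2* alone was called at day 3. Among the 5 factors of this set whose mRNAs are known decay targets, apart from *Upf3b*, 2 were higher and 0 lower at day 0, and 3 were higher and 1 lower at day 3. With a block within each day these counts were 3 higher and 2 lower at day 0 (*Upf1* and *Smg6* lower) and 4 higher and 1 lower at day 3. Scaled to neighbouring genes, 0 were called at day 0 and 1 was higher at day 3. The increases that passed were 1.16-fold to 1.32-fold.

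**Figure D4:**
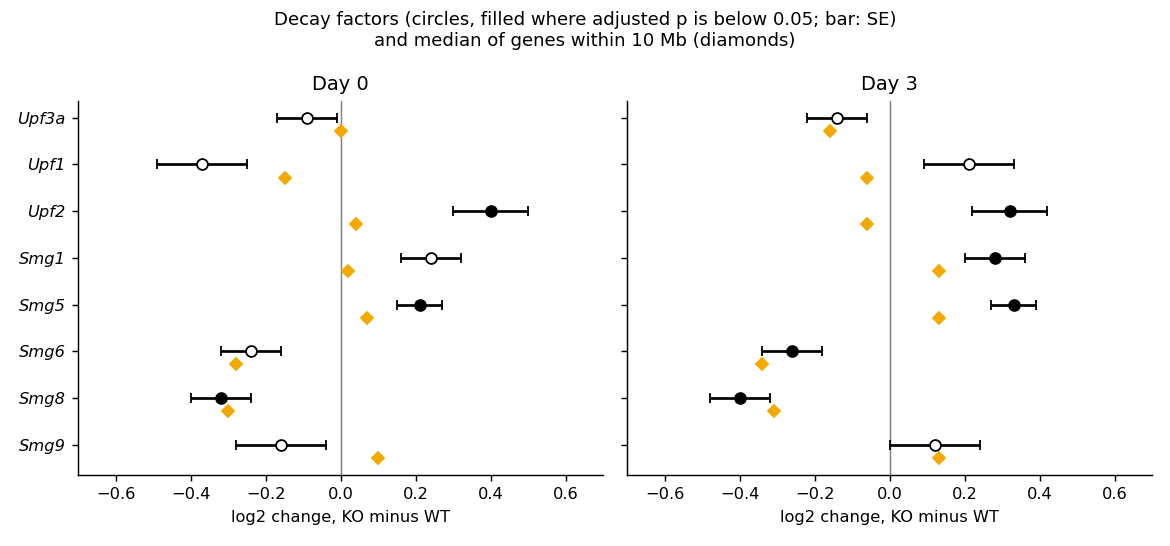
Log2 change, KO minus WT (x axis), of the 8 other decay factors (y axis) at day 0 and day 3, with SE bars and with filled circles where the adjusted p was below 0.05. Diamonds give the median of the genes within 10 Mb. Smg6 and Smg8 lie beside diamonds of -0.28 to -0.34, while Upf2 at 0.40 and 0.32 lies to the right of its own.

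Most of the factors were lower at day 3 than at day 0 in each genotype. In WT cells 5 of the 9 fell from day 0 to day 3 and 0 rose in edgeR, beside 25.5% and 30.7% of all genes tested. DESeq2 called 7 lower and limma-voom 6, and 7 were lower at an unadjusted p below 0.05, with 0 higher by each of these. *Smg5* fell by 0.87 on the log2 scale (SE 0.06, adjusted p = 5.81e-06), *Smg8* by 0.64 (SE 0.08, adjusted p = 0.000154), *Smg9* by 0.62 (SE 0.12, adjusted p = 0.00148), *Upf1* by 0.55 (SE 0.12, adjusted p = 0.00381) and *Upf3a* by 0.49 (SE 0.08, adjusted p = 0.000504). *Upf3b* and *Smg1* both changed by -0.02, with adjusted p-values of 0.934 and 0.856. *Upf2* at -0.24 and *Smg6* at -0.21 did not pass (adjusted p = 0.0552 and 0.0518).

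In KO cells 6 of the 8 other factors fell and 0 rose, with the same counts in DESeq2 and limma-voom and 0 higher at an unadjusted p below 0.05, beside 27.2% and 29.4% of all genes. *Smg5* fell by 0.75, *Smg8* by 0.72, *Upf3a* by 0.54, *Smg9* by 0.34, *Upf2* by 0.32 and *Smg6* by 0.23 on the log2 scale, with adjusted p-values from 7.91e-06 to 0.0379. The calls of *Upf2*, *Smg6* and *Smg9* were lost in 3, 6 and 4 of the 12 fits without 1 library (adjusted p up to 0.0803, 0.181 and 0.133), and that of *Smg6* also without the block (adjusted p = 0.101). *Upf1*, which fell in WT cells, changed by 0.02 in KO cells (SE 0.12, adjusted p = 0.897). The 2 time courses share no samples, and the test of their difference is the one given above for *Upf1*, which missed the threshold. For the 7 factors other than *Upf1* and *Upf3b*, the difference between days in the KO effect lay between -0.08 and 0.28, with adjusted p-values from 0.287 to 0.942. Of all genes tested, 15.5% had a difference that passed.

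The order of the levels per kb of exon was set out for each group, since longer transcripts collect more reads. The length was that of all annotated exons of a gene together, 6956 bases for *Smg5* and 4618 for *Upf1*. Their longest single transcripts had 4448 and 4618 bases, so the order between genes depends on the length used. In WT ESCs it ran from *Smg5* (48.3 CPM per kb) and *Upf1* (47.1), whose ranges overlapped, through *Smg8* (31.1), *Upf2* (19.4) and *Smg6* (15.9) to *Upf3b* (13.0) and *Smg1* (12.7), whose ranges also overlapped, then *Upf3a* (9.15) and *Smg9* (7.29). In KO ESCs *Smg5* (56.1) stood above *Upf1* (36.5) without overlap, and *Upf2* (25.6) and *Smg8* (24.9) overlapped. By the length of all exons *Upf1* led at day 3 in both genotypes, at 32.0 CPM per kb in WT and 36.9 in KO. *Upf3b* was last in both KO groups, at 0.12 CPM per kb at day 0 and 0.00 at day 3.

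The genes whose pattern over the 12 samples was most like that of *Upf3b* were *Ipo5*, *Ubac2*, *Tm9sf2*, *2310039H08Rik* and *Fbxw11*, with Pearson correlations of log2(CPM + 0.5) from 0.96 to 0.972, given as a description because the points share libraries and genotype. None was lost as *Upf3b* was. *Ipo5*, an importin for nuclear entry, averaged 1179 CPM in WT and 558 CPM in KO at day 0 and 1091 and 585 CPM at day 3. *Ipo5*, *Ubac2* and *Tm9sf2* lie on chromosome 14 between 120911224 and the *Tm9sf2* start at 122107038. Of the 17 other expressed genes within 3 Mb of *Ipo5*, 15 were lower in KO cells at day 0 and 14 at day 3, with median changes of -0.95 and -1.01.

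Of 12 further decay factors, 1 was higher and 1 lower in KO cells at day 0, and 3 were higher and 2 lower at day 3, with medians of 0.07 and 0.16, where 9.56% and 10.9% of all genes were called at day 0 and 14.3% and 16.7% at day 3. With a block within each day they were 4 higher and 1 lower at day 0 and 5 higher and 3 lower at day 3. That fit called 16.8% of all genes higher and 18.0% lower at day 0, and 22.5% and 24.4% at day 3. *Mov10*, a helicase that works with *Upf1*, rose by 0.93 (SE 0.13, adjusted p = 0.00109) and 0.98 (SE 0.13, adjusted p = 0.000529), beside local medians of 0.03 and 0.10. *Stau2*, an RNA-binding protein of the related Staufen-mediated decay, was lower by 0.69 at day 0 (change -0.69, SE 0.14, adjusted p = 0.00652) and by 0.48 at day 3 (change -0.48, SE 0.13, adjusted p = 0.0191), where the call was lost without WT replicate 2 or 3 or any KO replicate of that day (adjusted p up to 0.085) and without the block (adjusted p = 0.087). The day 3 call of *Stau2* was also lost scaled to neighbouring genes (-0.37, adjusted p = 0.0606). *Gspt1*, the termination factor eRF3a, had 427, 389 and 378 CPM in WT and 482, 482 and 486 CPM in KO at day 3. Its change was -0.11 at day 0 (adjusted p = 0.392) and 0.28 at day 3 (SE 0.08, adjusted p = 0.0242), beside a local median of 0.13. Scaled to neighbouring genes, its day 3 change was 0.15 (adjusted p = 0.167). *Ruvbl2*, an ATPase that acts with the *Smg1* complex, changed by 0.21 at day 0 without passing (adjusted p = 0.0656), though it passed with a block within each day (adjusted p = 0.0138) and in DESeq2 (adjusted p = 0.0358). It passed at day 3 (0.22, adjusted p = 0.0457), but not without the block (adjusted p = 0.094). With scaling to neighbouring genes, *Ruvbl2* changed by 0.21 at day 0 (adjusted p = 0.0494) and 0.08 at day 3 (adjusted p = 0.407). The day 3 calls of *Gspt1* and *Ruvbl2* were lost in 5 and 8 of the 12 fits without 1 library (adjusted p up to 0.099 and 0.169).

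Among 9 genes of the exon junction complex, to which *Upf3b* binds, 1 was higher and 3 were lower at day 0 and 1 was higher and 1 lower at day 3, beside the same shares of all genes. With a block within each day, 2 were higher and 3 lower at day 0 and 3 higher and 2 lower at day 3. That fit called 16.8% of all genes higher and 18.0% lower at day 0, and 22.5% and 24.4% at day 3. *Magohb*, 1 of a pair of genes for the core subunit Mago, had 17.6, 19.9 and 16.7 CPM in WT and 4.88, 3.53 and 2.55 CPM in KO at day 0. Its change was -2.35 (SE 0.18, adjusted p = 8.33e-05) at day 0 and -0.44 (SE 0.17, adjusted p = 0.0696) at day 3, where it passed with a block within each day (adjusted p = 0.0291) and in limma-voom (adjusted p = 0.0499). *Casc3*, a core subunit on chromosome 11, changed by -0.46 (adjusted p = 0.00312) and -0.33 (adjusted p = 0.00999), beside local medians of -0.23 and -0.26. The day 3 call of *Casc3* was lost without KO replicate 3 of day 3 (adjusted p = 0.0546), and both calls were lost scaled to neighbouring genes (adjusted p = 0.096 and 0.589). *Rnps1*, a peripheral splicing factor, was lower at day 0 (-0.39, adjusted p = 0.0254). *Sap18*, of the same peripheral group, was higher at both days (0.38 and 0.35, adjusted p = 0.0337 and 0.0344). The call of *Rnps1* was lost in 4 of the 12 fits without 1 library, and those of *Sap18* in 7 and 6 (adjusted p up to 0.116, 0.111 and 0.134). Scaled to neighbouring genes, the day 0 call of *Sap18* was lost (0.34, adjusted p = 0.0537) and its day 3 call was kept (adjusted p = 0.0496).

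Of 15 genes for decapping and bulk mRNA decay, 1 was higher and 0 lower at day 0, and 1 was higher and 1 lower at day 3, beside 9.56% and 10.9% of all genes at day 0 and 14.3% and 16.7% at day 3. DESeq2 called 2 higher and 1 lower at day 0 and 3 higher and 1 lower at day 3, and a block within each day gave 2 and 2 at day 0 and 5 and 3 at day 3. Of the 15673 genes tested, DESeq2 called 1779 higher and 1876 lower at day 0, and 2705 and 2624 at day 3. The block within each day called 16.8% higher and 18.0% lower at day 0, and 22.5% and 24.4% at day 3. *Dis3*, a catalytic exonuclease of the RNA exosome, had 283, 365 and 319 CPM in WT and 1340, 1241 and 1263 CPM in KO at day 0. At day 3 it had 193, 180 and 170 CPM in WT and 1005, 988 and 1002 CPM in KO. Its change was 1.99 (SE 0.10, adjusted p = 4.2e-06) at day 0 and 2.46 (SE 0.10, adjusted p = 6.4e-07) at day 3. All 9 other expressed genes within 3 Mb of *Dis3* on chromosome 14 were also higher at both days, with medians of 2.01 and 1.77. *Edc4*, a scaffold of the decapping complex on chromosome 8, was lower at day 3 (-0.27, adjusted p = 0.0135), beside a local median of -0.16. The call was lost without WT replicate 3 or KO replicate 1 or 3 of day 3 (adjusted p up to 0.093) and without the block (adjusted p = 0.0639). It was also lost scaled to neighbouring genes (-0.11, adjusted p = 0.252). With a block within each day, *Edc4* was also lower at day 0 (-0.20, adjusted p = 0.0204) and *Patl1*, an activator of decapping, was higher at day 3 (0.41, adjusted p = 0.000965).

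Genes with a transcript that the pathway is known to degrade were also read, 22 listed and 21 tested. Counts per gene do not separate such a transcript from the other transcripts of the same gene. At day 0, 4 were higher and 1 lower, with a median of 0.02, beside 9.56% and 10.9% of all genes. Without the block 2 were higher and 1 lower at day 0, and with a block within each day 5 were higher and 3 lower. At day 3, 9 were higher and 1 lower, with a median of 0.31 against 0.00 over all genes, of which 14.3% were called higher and 16.7% lower. Without the block the day 3 count was 7 higher, and with a block within each day it was 14 higher, with 1 lower in each fit. Of the 15673 genes tested, the fit without the block called 1207 higher and 1433 lower at day 0, and 1835 and 2299 at day 3. The block within each day called 16.8% higher and 18.0% lower at day 0, and 22.5% and 24.4% at day 3. With scaling to neighbouring genes, 2 were higher and 1 lower at day 0, and 7 higher and 1 lower at day 3. That fit called 1212 and 1488 of all genes at day 0, and 1756 and 2431 at day 3. The 1 lower at each day in the main fit was *Atf3*, a stress transcription factor gene. Its change was -1.08 at day 0 (SE 0.31, adjusted p = 0.0351) and -1.67 at day 3 (SE 0.33, adjusted p = 0.00467). The day 0 call of *Atf3* was lost in some fits without 1 library (adjusted p up to 0.158). The day 3 genotypes also differed in the streak markers given above, and the part of that difference in these counts was not tested.

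*Snhg15* and *Gas5*, spliced hosts of small nucleolar RNAs, were higher at both days. *Snhg15* had 45.3, 47.5 and 37.2 CPM in WT and 78.2, 78.5 and 62.1 CPM in KO at day 0. Its change was 0.75 (SE 0.11, adjusted p = 0.00185) at day 0 and 0.95 (SE 0.11, adjusted p = 0.000374) at day 3. *Snhg15* lies on chromosome 11, where its neighbours had medians of -0.28 and -0.31, opposite in sign to its own change. *Gas5* rose by 0.77 (SE 0.13, adjusted p = 0.00298) and 0.79 (SE 0.13, adjusted p = 0.00161), beside medians of 0.38 and 0.42 for its part of chromosome 1. Scaled to those neighbours it missed the threshold at both days (adjusted p = 0.0533 and 0.0508), as it did at day 0 without the block (adjusted p = 0.0589).

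*Atf4*, a stress transcription factor with upstream reading frames, was higher by 0.41 (adjusted p = 0.0149) and 0.31 (adjusted p = 0.0358), with overlapping groups and no call without the block (adjusted p = 0.077 and 0.148). These calls were also lost in 4 and 5 of the 12 fits without 1 library (adjusted p up to 0.0795 and 0.136). Scaled to neighbouring genes, the day 3 call of *Atf4* was lost (0.2, adjusted p = 0.203) and its day 0 call was kept (adjusted p = 0.0492). *Epb41l4aos* and *Snhg12* passed at day 3, at 0.75 (SE 0.11, adjusted p = 0.00098) and 0.53 (SE 0.08, adjusted p = 0.00148). At day 0 their changes were 0.18 and 0.19 and did not pass. *Snhg12* lost its day 3 call without the block (adjusted p = 0.127), since replicate 1 was high in both genotypes.

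**Figure D5:**
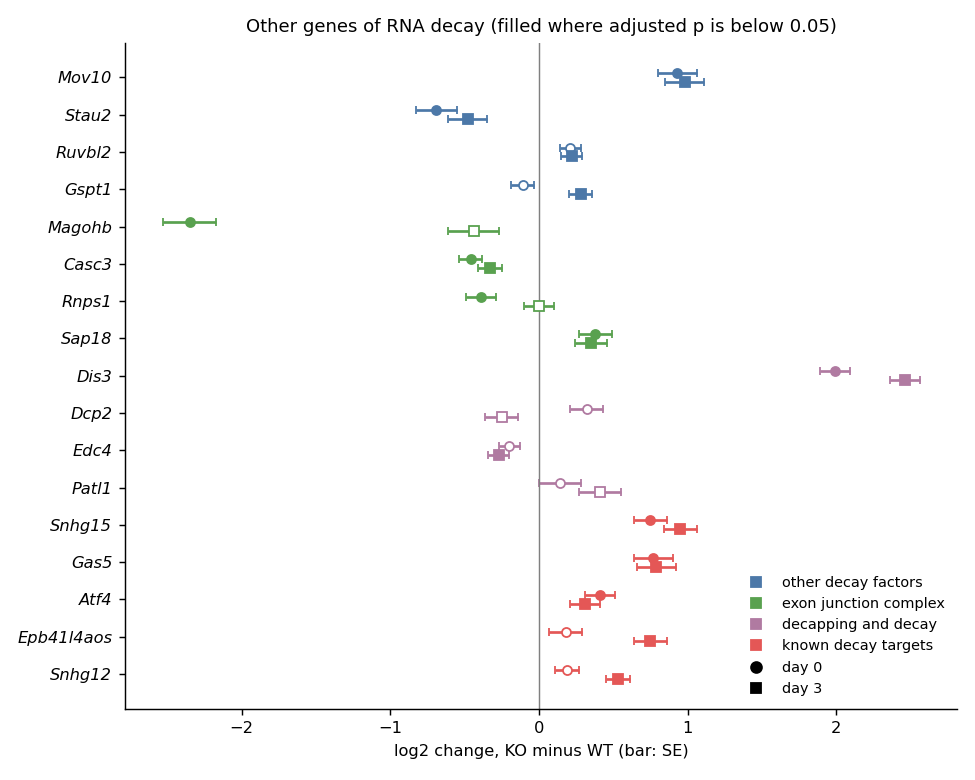
Log2 change, KO minus WT (x axis, with SE bars), at day 0 (circles) and day 3 (squares) for the genes of the 4 wider lists with the smallest p-values (y axis), filled where the adjusted p was below 0.05. Dis3 lies farthest right at 1.99 and 2.46, Magohb farthest left at -2.35 at day 0, and Snhg15, Gas5 and Mov10 lie between 0.75 and 0.98 at both days.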

How the data were processed

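Counts per gene were those deposited. Per the methods and the submitters' processing notes, the authors used Cutadapt 1.3 for trimming, STAR 2.4.2a for alignment to GRCm38 and HTSeq 0.6.1 for the counts. The labels name a stranded kit, but the strand setting used for these counts is not given in the sources used here. The labels and the methods name different RNA kits and sequencers. Summary lines of the count files (46.3% to 51.0% of their total, mostly reads with several alignments) stayed out of library sizes, and reads that align to several places were not counted.

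In edgeR 4.0.16 (R 4.3.3), genes above 1 CPM in at least 1 of the 12 samples were kept (15673), scaled by TMM and fitted by quasi-likelihood with 4 groups and the replicate number as a block. Log2 changes have standard errors from the F statistic, p-values were adjusted over all genes tested (Benjamini-Hochberg), and a call is an adjusted p below 0.05. All adjusted p-values given are from edgeR unless another tool is named. CPM values are TMM-scaled. Symbols, exon lengths and positions are from GENCODE M21. Alternatives included DESeq2 1.42.0, limma-voom (limma 3.58.1), other scalings and filters, no block, a block within each day, and each library left out. A scaling to the median of expressed genes (mean above 10 CPM) within 10 Mb, or on the chromosome where fewer than 20 lay there, was added after seeing the data. Within a day, samples of the same replicate number deviated together (r = 0.378 to 0.753 over 6 pairs, against -0.64 to 0.228 for different numbers), so the numbers pair the samples of a day. Between days the same number gave r = -0.276 to 0.099. The block of the fit is shared by both days, and calls of named genes that differ with a block within each day are given with both. The pairing comes from the data and not from the labels.

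In counts simulated for KO against WT at day 0 (14887 genes tested), 77 of 100 genes with a log2 change of 1 and 1 of 100 with 0.3 were recovered, when 200 genes changed, and 1 unchanged gene was called. Besides the 9 factors, the genes named are the 5 nearest tested genes on each side of *Upf3b*, the 5 most like it over the samples, and the 3 with the smallest p-values per day in each wider list. *Atf3* is also named, as the 1 gene of the list of decay targets that was called lower. The members and all lists were chosen with earlier results of these data known. 1 decay factor is not reported here. Protein sequences were not used here.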

Additional observations from a re-analysis of the deposited data

Results flagged for a closer look

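In the test of whether the KO effect differed between the days, 7 named genes passed with the block shared by both days (3 samples in each group, edgeR). None of the 8 decay factors other than *Upf3b* passed in that fit. *Upf1* missed the threshold there (adjusted p = 0.0511) and passed with a block within each day (adjusted p = 0.00113). That block also gave a called difference for *Ube2a* (0.35, adjusted p = 0.0271) and *Nkrf* (0.4, adjusted p = 0.0235). *Rnps1* (0.4, adjusted p = 0.0185) and *Snhg12* (0.34, adjusted p = 0.0312) passed with it too. With the shared block the adjusted p was 0.207 (*Ube2a*), 0.0809 (*Nkrf*), 0.1 (*Rnps1*) and 0.0775 (*Snhg12*). *Magohb* had changes of -2.35 at day 0 and -0.44 at day 3 (adjusted p = 8.33e-05 and 0.0696), a difference of 1.91 (SE 0.25, adjusted p = 0.00148). The change of *Dis3* was 1.99 and 2.46, a difference of 0.47 (SE 0.13, adjusted p = 0.0371). *Gspt1* had changes of -0.11 and 0.28, a difference of 0.38 (SE 0.11, adjusted p = 0.0443). *Dcp2*, the catalytic decapping enzyme, had changes of 0.32 and -0.25 (adjusted p = 0.0561 and 0.102) and a difference of -0.57 (SE 0.15, adjusted p = 0.0296). Both changes of *Dcp2* passed with a block within each day (adjusted p = 0.00328 and 0.0105), and the day 0 change in DESeq2 (adjusted p = 0.0311). For *Epb41l4aos* the changes were 0.18 and 0.75, a difference of 0.58 (SE 0.16, adjusted p = 0.0334). Of the neighbours of *Upf3b*, *Sept6* differed by 0.71 (SE 0.18, adjusted p = 0.023) and *Rhox5* by 1.35 (SE 0.34, adjusted p = 0.0254), of which the latter was lost without the replicate block (adjusted p = 0.0828). With 1 library left out, the adjusted p of *Magohb* stayed at or below 0.00697. For the others it reached 0.111 (*Dis3*), 0.108 (*Gspt1*), 0.102 (*Epb41l4aos*), 0.0974 (*Dcp2*), 0.0748 (*Rhox5*) and 0.0721 (*Sept6*). The differences of *Gspt1* and *Sept6* were also lost scaled to neighbouring genes (adjusted p = 0.0618 and 0.0664).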

How the results depend on the processing

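Counts of decay factors called between genotypes depended on the fit. At day 0 the 2 higher became 1 without the replicate block, with library size only and with no filter, and 0 scaled to neighbouring genes, but 3 with a block within each day, in DESeq2 and in the 6 samples of that day. The 1 lower became 3 with a block within each day, with library size only and in the 6 samples of that day, 2 in DESeq2 and with no filter, and 0 scaled to neighbours. At day 3 the 3 higher became 1 with library size only and scaled to neighbours, 2 without the block and with no filter, and 4 with a block within each day and in the 6 samples, and the 2 lower became 1 without the block, with RLE and with no filter, and 0 scaled to neighbours. The 0 factors whose KO effect differed between days became 1 (*Upf1*) with a block within each day, in DESeq2, limma-voom, RLE, at least 10 counts per sample, no filter, and scaled to neighbours. Leaving out 1 library gave 0 to 3 higher and 0 to 2 lower at day 0, 1 to 3 higher and 1 to 2 lower at day 3, 3 to 6 lower from day 0 to day 3 in KO, and 0 to 1 for the difference between days. Without the block, 5 of 9 factors fell in WT and 5 of 8 in KO, and the block changed no other call of a decay factor than those given beside the results.

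The block within each day called 5447, 7347 and 4889 genes at day 0, at day 3 and for the difference between days, against 3201, 4846 and 2436, and the 6 samples of day 0 alone called 5356. With library size only, 36.1% of day 3 calls were higher against 46.1%, and the median of all genes in the WT time course shifted by 0.12.

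Of 1912 values for 89 single-gene results under alternatives, 50 changed sign. Among these the day 3 change of *Smg6* was the one that had been called. Scaled to neighbours these were *Upf3a* (0.03), *Smg9* (0.00) and *Smg6* (0.08) at day 3, *Smg6* (0.04), *C330007P06Rik* (0.12), *Nkrf* (0.03), *Rpl39* (0.11) and *Rhox5* (0.08) at day 0, and the differences between days of *Upf3a* (0.12), *Upf2* (0.01), *Smg6* (0.04) and *Smg1* (-0.08). With library size only they were the WT time changes of *Smg1* and *Upf3b* (0.10 each), the difference of *Smg1* (0.00), *Rpl39* at day 3 (-0.01) and *Ndufa1* at day 0 (-0.02). DESeq2 and RLE gave -0.01 for the KO time changes of *Upf1* and *Smg1*, and both count filters gave 0.00 for *Ndufa1* at day 0. Over single libraries left out, the ranges were -0.12 to 0.08 (*C330007P06Rik*), -0.03 to 0.04 (*Ndufa1*), -0.29 to 0.12 (*Rhox5*) and -0.04 to 0.35 (*Rnf113a1*) at day 0, -0.10 to 0.04 (*Ndufa1*), -0.25 to 0.03 (*Rnf113a1*) and -0.03 to 0.13 (*Rpl39*) at day 3, -0.01 to 0.13 (*Smg1*), -0.09 to 0.07 (*Smg6*) and -0.17 to 0.01 (*Upf2*) for differences between days, -0.05 to 0.12 (*Smg1*) and -0.06 to 0.12 (*Upf1*) in KO, and -0.08 to 0.02 (*Smg1*) and -0.14 to 0.10 (*Upf3b*) in WT. The causes of these shifts were not tested.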
